A study of Mus musculus with 12 samples.

Results

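The genes described here are 30 genes of cholesterol synthesis and sterol homeostasis, listed as a pathway with earlier results of these data known and found by symbol among 24452 genes measured in mouse brown adipose tissue. All 30 passed the filter on low values, a mean of at least 0.5 RPKM (reads scaled to gene length and library total), as did 12249 genes in all. This tissue burns fuel to make heat through uncoupled respiration. Total RNA was sequenced from male C57BL/6J Bom mice aged 12 weeks and housed at 30 °C, in 4 groups of 3 libraries. ERRKO mice, named ERRαγAd-/- in the labels, carry floxed alleles of ERRα and ERRγ deleted by a Cre under the adiponectin promoter, which is active in adipocytes, so that other cells of the depot keep both genes. WT mice were floxed littermates without Cre. ERRKO_CL and WT_CL mice received CL316,243, which activates the β3-adrenergic receptor, at 1 mg/kg by daily intraperitoneal injection for 10 days, and ERRKO_PBS and WT_PBS mice received the same volume of PBS. Tissue was collected 24 h after the last dose. Whether each library comes from its own animal is not stated in the labels, and p-values then cover only the spread between libraries, which may be technical.

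Cells make cholesterol from acetyl-CoA in a chain of enzymes, first through mevalonate and isoprenoid diphosphates to farnesyl diphosphate, then through squalene and lanosterol to sterols. The transcription factor SREBP-2, the product of Srebf2, switches these enzymes on when membranes of the endoplasmic reticulum are low in sterol: Scap escorts it to the Golgi, and the INSIG proteins hold Scap back when sterol is plentiful. The liver X receptors, encoded by Nr1h3 (LXRα) and Nr1h2 (LXRβ), respond to oxysterols and switch on the exporters Abca1 and Abcg1. ERRα and ERRγ are orphan nuclear receptors best known for genes of mitochondrial respiration, and activated brown fat also takes up lipoprotein particles and makes fatty acids.

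Promoter sequence is shown because SREBP-2, NF-Y and the ERR proteins bind DNA near gene starts. RefSeq promoters (GRCm38.p6) were matched by symbol for 24 of the 30 genes, and not for Fdps, Fdft1, Sqle, Stard4, Npc1 and Abcg1; a gene may have several. The windows searched were the 250 bases before each start, on both strands, for a sterol regulatory element (TCACNCCAC), the NF-Y box (CCAAT), the ERR element (TCAAGGTCA), the core that this element contains (AAGGTCA) and the cAMP response element (TGACGTCA). The 4 sequences below belong to Hmgcs1 and Insig1, which were higher with agonist in both genotypes, to Nsdhl, which was higher with agonist in WT, and to Insig2, the Insig1 paralog, for which no agonist change passed. Each is written 5′ to 3′ on its gene's strand, with matches to the first 4 motifs in capitals, so that ATTGG is an NF-Y box on the opposite strand. The Insig1 window ends before the first annotated exon. Insig2 has 3 windows; the one shown holds 3 NF-Y boxes, and the other 2 hold no match to any of the 5 motifs. They lie at chr13:119690101-119690350 (plus strand, Hmgcs1), chr5:28071162-28071362 (plus strand, Insig1), chrX:72918271-72918520 (plus strand, Nsdhl) and chr1:121332590-121332839 (minus strand, Insig2).
Hmgcs1: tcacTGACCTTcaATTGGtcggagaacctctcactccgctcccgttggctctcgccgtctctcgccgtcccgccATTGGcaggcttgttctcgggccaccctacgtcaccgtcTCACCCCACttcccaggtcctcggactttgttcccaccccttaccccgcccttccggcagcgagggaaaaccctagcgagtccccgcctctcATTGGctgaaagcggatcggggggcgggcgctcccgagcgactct
Insig1: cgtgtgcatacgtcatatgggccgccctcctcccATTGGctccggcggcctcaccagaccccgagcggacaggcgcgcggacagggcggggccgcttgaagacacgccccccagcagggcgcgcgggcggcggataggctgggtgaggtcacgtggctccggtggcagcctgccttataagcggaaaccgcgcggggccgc
Nsdhl: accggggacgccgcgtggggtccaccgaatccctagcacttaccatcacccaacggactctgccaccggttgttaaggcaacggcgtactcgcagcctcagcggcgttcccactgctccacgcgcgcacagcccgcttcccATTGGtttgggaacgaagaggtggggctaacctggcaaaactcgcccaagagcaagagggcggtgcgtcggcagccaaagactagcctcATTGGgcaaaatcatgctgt
Insig2: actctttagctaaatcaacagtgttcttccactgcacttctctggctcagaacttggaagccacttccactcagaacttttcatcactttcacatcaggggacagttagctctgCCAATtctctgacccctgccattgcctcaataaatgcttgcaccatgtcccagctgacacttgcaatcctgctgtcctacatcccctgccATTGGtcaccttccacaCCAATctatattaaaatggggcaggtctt
In Hmgcs1 the sterol regulatory element begins 137 bases before the start, and TGACCTT, the core of the ERR element read on the opposite strand, begins 246 bases before it. An NF-Y box was present in 19 of the 24 members, against 37.49% of 27025 genes with a promoter. The sterol regulatory element was present in 1 of 24 (Hmgcs1), against 1.22% of genes, and the ERR core in 2 of 24 (Hmgcs1 and Dhcr7), against 4.7%. The full ERR element and the cAMP response element were present in 0 of 24, against 0.42% and 1.77% of genes. These matches describe letters in a window and do not show binding. Only exact matches were counted, so a site that differs from these forms by a letter is missed.

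The libraries held 12468001 to 12954186 recovered reads in ERRKO_CL, 12822176 to 13263567 in ERRKO_PBS, 8979123 to 9559239 in WT_CL and 8478310 to 9727167 in WT_PBS. On the deposited RPKM scale the median gene differed by a log2 of 0.63 between ERRKO_CL and WT_CL, 0.53 between ERRKO_PBS and WT_PBS, -0.26 between WT_CL and WT_PBS and -0.16 between ERRKO_CL and ERRKO_PBS. Levels below are therefore scaled RPKM, the RPKM divided by a median-of-ratios factor per library, and changes are log2 of scaled RPKM plus 0.5, given with SE and an adjusted p from limma, which sets each change against the median gene. Counts are given on both scales where they differ. Esrra, the ERRα gene, was at 6.70 to 8.71 in ERRKO_CL, 5.26 to 8.90 in ERRKO_PBS, 75.6 to 83.2 in WT_CL and 41.7 to 47.0 in WT_PBS, as the genotype labels have it. Esrrg, the ERRγ gene, was at 6.38 to 8.13 in ERRKO_CL, 2.3 to 4.72 in ERRKO_PBS, 5.62 to 8.14 in WT_CL and 4.41 to 8.27 in WT_PBS. It was lower in ERRKO under PBS (-0.87 ± 0.25, adjusted p = 0.0189), and under agonist the difference was 0.03 ± 0.25 (adjusted p = 0.944), so Esrrg goes against the label of the ERRKO_CL libraries and ERRKO names the labelled genotype throughout. Which part of each gene is deleted, and so whether these reads could show it, is not given in the sources used here. Summed skeletal muscle markers (12 genes, of which Ckm, Myh1 and Pvalb were at 0 in some library) reached 220 to 1777 in ERRKO_CL and 112 to 3385 in ERRKO_PBS, against 2.32 to 402 in WT_CL and 3.11 to 315 in WT_PBS. The part of muscle RNA in the values below was not tested. In bulk tissue, fewer cells of a type and less RNA per cell cannot be told apart.

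The agonist comparison within WT asked what β3-adrenergic stimulation changed with both receptors present. Of the 30 members 10 were higher and 1 was lower in WT_CL than in WT_PBS, on a background of 17.9% and 12.6% of all genes tested, and 7 of the 10 were among the 17 synthesis enzymes. The split on the deposited scale was 4 higher and 5 lower, on a background of 7.2% and 38.1%. In ERRKO the same treatment raised 2 members, Hmgcs1 and Insig1, and lowered 0, on a background of 6.68% and 3.62%; on the deposited scale the counts were 2 and 3 (3.23% and 13.7% of all genes), and 6 members were higher and 2 lower at an unadjusted p under 0.05, as were 15.4% and 9.65% of all genes. The median change of the 30 was 0.13 in WT and 0.08 in ERRKO, against 0.01 and 0.02 for all genes. Complete separation of the groups was seen for 10 members above and 2 below in WT, where 43% of all genes separated, and for 9 above and 2 below in ERRKO, where 31.8% did. Both comparisons within a treatment share their control libraries with these, so they are given side by side and not as independent evidence.

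The genotype comparisons asked what loss of ERRα and ERRγ in adipocytes changed at rest and under agonist. Under agonist 4 members were higher and 9 lower in ERRKO_CL than in WT_CL, on a background of 19.8% and 21.6%, and all 9 that were lower are synthesis enzymes, while the 4 that were higher are Insig2, Npc1, Npc2 and Abca1. Under PBS 3 members were higher and 4 lower in ERRKO_PBS than in WT_PBS, on a background of 15.8% and 18.4%. The deposited scale turned both splits round, to 16 higher and 5 lower under agonist, where 70.5% of all genes were higher and 6.62% lower, and to 15 higher and 1 lower under PBS, where 66.3% and 6.22% were. The members' median was -0.17 under agonist and -0.05 under PBS, against 0.01 for all genes in both comparisons, and 0.39 and 0.47 on the deposited scale. Groups did not overlap for 3 members above and 10 below under agonist (54.6% of all genes) and for 3 above and 7 below under PBS (45% of all genes). For the genotype by agonist interaction, the ERRKO response minus the WT response, 0 members were higher and 2 lower, Nsdhl and Idi1, on a background of 1.88% and 2.02%; the counts were 1 and 6 at an unadjusted p under 0.05 (8.82% and 9.95% of all genes), 0 and 2 with edgeR on the recovered reads, and 0 and 1 on the deposited scale (3.88% and 1.26% of all genes). In all, 18 members passed in at least 1 comparison and 12 in none. The share of all genes that passed in at least 1 was not taken, so these counts are no result about the members. "Passed" refers to scaled RPKM below unless the deposited scale is named. On the deposited scale alone 11 further members passed for ERRKO_CL against WT_CL and 12 for ERRKO_PBS against WT_PBS, all higher in ERRKO, and 3 passed for agonist in ERRKO and 4 in WT, all lower with agonist.

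**Figure D1:**
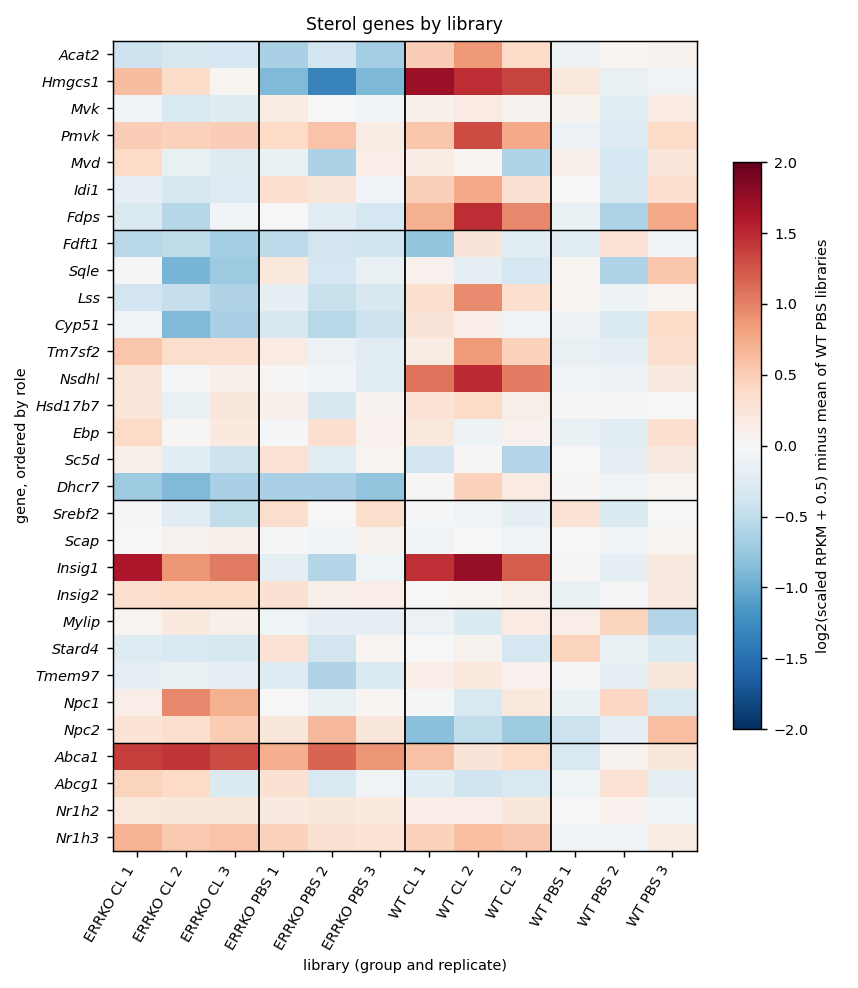
Level of each of the 30 genes in each library, as the log2 difference from the mean of the WT_PBS libraries on the scaled RPKM scale (colour, red higher and blue lower), with genes in rows by role and libraries in columns by group. Hmgcs1 and Nsdhl are reddest in WT_CL, Insig1 is red in both agonist groups, and Abca1 is red in both ERRKO groups, on this scale. On the deposited scale the median gene shifts by a log2 of 0.53 in ERRKO_PBS and -0.26 in WT_CL, each against WT_PBS. Between ERRKO_CL and WT_CL it shifts by 0.63.

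Among the mevalonate steps Hmgcs1 passed in 4 comparisons. It encodes cytosolic HMG-CoA synthase, which feeds the pathway. Hmgcs1 was at 62.2, 52.6 and 42.2 in ERRKO_CL, 21.7, 15.7 and 21.4 in ERRKO_PBS, 134, 114 and 104 in WT_CL and 47.0, 36.6 and 38.6 in WT_PBS. The WT_CL libraries lay above every other library and the ERRKO_PBS libraries below every other, so each of the 4 comparisons separated without overlap. Per length Hmgcs1 ranked 4 among the 30 genes in ERRKO_CL, 7 in ERRKO_PBS, 1 in WT_CL and 3 in WT_PBS. With agonist it rose in ERRKO (1.39 ± 0.17, adjusted p = 0.000588) and in WT (1.51 ± 0.17, adjusted p = 7.28e-05), and the difference between these responses was -0.12 ± 0.24, adjusted p = 0.845, with a 95% interval of -0.64 to 0.39. It was lower in ERRKO than in WT under agonist (-1.16 ± 0.17, adjusted p = 0.000143) and under PBS (-1.04 ± 0.17, adjusted p = 0.000453). All 4 calls stood in the same direction without any one library and on the deposited scale, where the genotype differences were smaller, at -0.45 under agonist (adjusted p = 0.0373) and -0.46 under PBS (adjusted p = 0.0362). Of its exon bases 12.1% overlap an antisense transcript, and the use of strand in counting is not given in the sources used here.

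Of the 7 mevalonate genes, 5 were higher in WT_CL than in WT_PBS (2 on the deposited scale) and 1 in ERRKO_CL than in ERRKO_PBS. In ERRKO_CL 5 were lower than in WT_CL (2 on the deposited scale, where another 2 were higher). In ERRKO_PBS 2 were lower than in WT_PBS (1 on the deposited scale, with 3 higher). Of all genes, agonist raised 17.9% in WT and 6.68% in ERRKO, and 21.6% and 18.4% were lower in ERRKO under agonist and PBS. On the deposited scale agonist raised 7.2% in WT. There 6.62% and 6.22% were lower and 70.5% and 66.3% higher in ERRKO under agonist and PBS. Idi1, the isomerase that makes dimethylallyl diphosphate, was the second member to pass the interaction. Idi1 was at 8.16, 7.28 and 7.66 in ERRKO_CL, 11.8, 11.0 and 8.86 in ERRKO_PBS, 13, 16.1 and 11.6 in WT_CL and 9.16, 7.33 and 11.8 in WT_PBS. Every ERRKO_CL library lay below every ERRKO_PBS and WT_CL library. The interaction was -0.94 ± 0.23, adjusted p = 0.0471, with -0.42 ± 0.17, adjusted p = 0.132 for agonist in ERRKO and 0.51 ± 0.17, adjusted p = 0.0343 in WT, and the genotype difference under agonist was -0.77 ± 0.17, adjusted p = 0.00278. The interaction call was lost in 10 of 12 fits that each left out 1 library, all but those without ERRKO_PBS replicate 3 or WT_PBS replicate 3 (adjusted p = 0.0576 to 0.114), and with the deposited scale (-0.82, adjusted p = 0.0571). The WT agonist call was lost without WT_CL replicate 1 or 2 or WT_PBS replicate 1 or 2 (adjusted p = 0.0656 to 0.140). The genotype difference under agonist passed without any one library, and on the deposited scale it was -0.08 (adjusted p = 0.641).

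Pmvk, which phosphorylates phosphomevalonate, was raised by agonist in WT. Pmvk was at 15.5, 15.2 and 15.5 in ERRKO_CL, 14.6, 16.5 and 12.2 in ERRKO_PBS, 16.2, 27.6 and 18.7 in WT_CL and 10.0, 9.06 and 14.2 in WT_PBS. The WT_CL libraries lay above the WT_PBS libraries, and the 3 ERRKO_CL libraries were nearly level with each other and within the ERRKO_PBS range. The change was 0.87 ± 0.20, adjusted p = 0.00602 in WT and 0.10 ± 0.20, adjusted p = 0.812 in ERRKO, and the interaction of -0.77 ± 0.28, adjusted p = 0.155 passed without WT_PBS replicate 3 (adjusted p = 0.0483), as did the genotype difference under PBS (adjusted p = 0.0401, against 0.156 with all libraries), which on the deposited scale was 0.95 (adjusted p = 0.000603). Fdps, which encodes farnesyl diphosphate synthase, had means of 9.02 ± 1.68 in ERRKO_CL, 9.72 ± 1.28 in ERRKO_PBS, 24.2 ± 6.96 in WT_CL and 12.1 ± 6.30 in WT_PBS (mean ± SD, n = 3 each). Under agonist it was lower in ERRKO (-1.35 ± 0.30, adjusted p = 0.00302) and higher in WT_CL than in WT_PBS (1.05 ± 0.30, adjusted p = 0.019). The second call was lost without WT_CL replicate 2, WT_PBS replicate 1 or WT_PBS replicate 2 (adjusted p = 0.0563 to 0.0803), and WT_PBS replicate 3, at 19.2, overlapped the WT_CL range of 18.5 to 31.9. Its interaction was -1.16 ± 0.42, adjusted p = 0.157, and without WT_PBS replicate 3 it passed (adjusted p = 0.0156). Fdps shares 26.7% of its exon bases with another annotated gene on the same strand, so its value is uncertain.

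Acat2, the cytosolic thiolase that makes acetoacetyl-CoA, had the levels that follow. Acat2 was at 50.8, 54.4 and 53.7 in ERRKO_CL, 43.4, 52.3 and 42.2 in ERRKO_PBS, 96.1, 124 and 88.5 in WT_CL and 63.2, 69.5 and 71.4 in WT_PBS. Both ERRKO groups lay below both WT groups. The changes were -0.94 ± 0.12, adjusted p = 8.14e-05 between genotypes under agonist, -0.57 ± 0.12, adjusted p = 0.00403 under PBS, and 0.58 ± 0.12, adjusted p = 0.00468 for agonist in WT, and on the deposited scale these were -0.22, 0.02 and 0.26, none past the threshold. Acat3 is a near-identical paralog. It stood at 3.76, 6.87 and 4.31 in ERRKO_CL, 5.25, 11.6 and 4.41 in ERRKO_PBS, 3.17, 7.25 and 0.691 in WT_CL and 16.5, 37.9 and 37.5 in WT_PBS. Both genes were also summed, an alternative chosen after seeing the data. The genotype differences of the sum were -0.85 under agonist and -0.89 under PBS (adjusted p = 0.00146 for each). The agonist change of the sum in WT was 0.10 (adjusted p = 0.682), and that of Acat3 alone was -3.17 ± 0.58 (adjusted p = 0.0018). A sum cannot tell lower Acat3 RNA from reads shared between these genes, and how reads were shared was not tested. Mevalonate kinase, Mvk, averaged 5.95 ± 0.589 in ERRKO_CL, 7.04 ± 0.572 in ERRKO_PBS, 7.48 ± 0.273 in WT_CL and 6.91 ± 1.01 in WT_PBS. Under agonist it was lower in ERRKO (-0.31 ± 0.11, adjusted p = 0.0422) but 0.35 higher on the deposited scale (adjusted p = 0.0144), and the call was lost in 7 of 12 fits that left out 1 library, those without ERRKO_CL replicate 2 or 3, ERRKO_PBS replicate 2 or 3 or any WT_CL library (adjusted p = 0.0508 to 0.141). Mvd, the decarboxylase of the branch, averaged 2.00 ± 0.636 in ERRKO_CL, 1.65 ± 0.550 in ERRKO_PBS, 1.76 ± 0.590 in WT_CL and 1.97 ± 0.497 in WT_PBS, with 24 to 103 reads per library, and passed in no comparison.

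**Figure D2:**
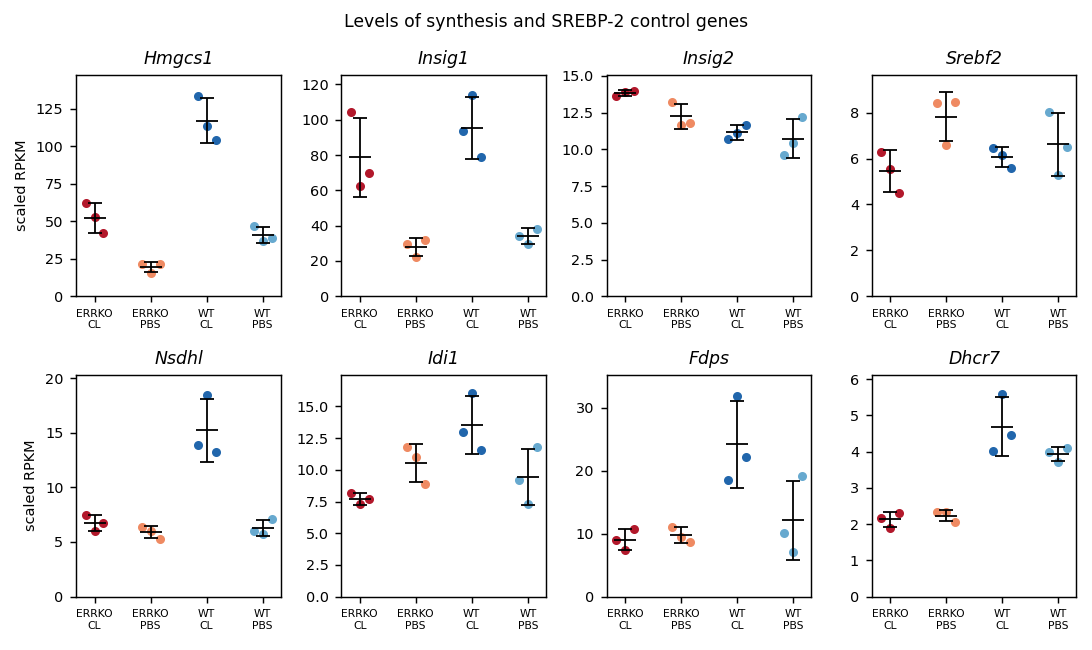
Scaled RPKM of 8 genes in each library (points, y axis from 0), by group along the x axis, with the mean (long bar) and SD (short bars, n = 3). Hmgcs1 and Insig1 are higher with CL316,243 in both genotypes, Nsdhl in WT, and Dhcr7 is lower in both ERRKO groups.

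In the steps from squalene to sterols, 4 of 10 genes were lower in ERRKO_CL than in WT_CL (3 on the deposited scale, where 3 were higher) and 1 of 10 in ERRKO_PBS than in WT_PBS (0, with 4 higher). Agonist raised 2 of 10 in WT (1 on the deposited scale, with 2 lower) and 0 of 10 in ERRKO. Of all genes, 21.6% and 18.4% were lower in ERRKO under agonist and PBS, and agonist raised 17.9% in WT and 6.68% in ERRKO. On the deposited scale 6.62% and 6.22% were lower and 70.5% and 66.3% higher in ERRKO under agonist and PBS. There agonist raised 7.2% and lowered 38.1% in WT. On the scaled values the agonist counts and the PBS count lay near the shares. Nsdhl encodes a dehydrogenase that takes part in removing methyl groups from lanosterol-derived sterols. Nsdhl was at 7.45, 6.05 and 6.73 in ERRKO_CL, 6.40, 6.00 and 5.31 in ERRKO_PBS, 13.9, 18.5 and 13.3 in WT_CL and 5.97, 5.74 and 7.13 in WT_PBS. The WT_CL libraries lay above all others, and the other 3 groups overlapped. Agonist raised Nsdhl in WT (1.2 ± 0.13, adjusted p = 7.7e-05) but the change in ERRKO was 0.18 ± 0.13, adjusted p = 0.465, and the difference between the responses passed (-1.03 ± 0.19, adjusted p = 0.0132; 95% interval -1.44 to -0.61). The interaction was -0.89 on the deposited scale (adjusted p = 0.0219). Under agonist Nsdhl was lower in ERRKO than in WT (-1.11 ± 0.13, adjusted p = 3.95e-05), and under PBS the difference was -0.08 ± 0.13, adjusted p = 0.675. These 3 calls stood without any one library.

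Dhcr7 encodes the reductase that turns the last dehydrosterol precursor into cholesterol. Dhcr7 was at 2.17, 1.89 and 2.32 in ERRKO_CL, 2.32, 2.33 and 2.06 in ERRKO_PBS, 4.02, 5.59 and 4.47 in WT_CL and 3.99, 3.72 and 4.10 in WT_PBS. The highest of the 6 ERRKO libraries lay below the lowest of the 6 WT libraries. Dhcr7 was lower in ERRKO under agonist (-0.98 ± 0.12, adjusted p = 4.29e-05) and under PBS (-0.70 ± 0.12, adjusted p = 0.000771), both without any one library, but on the deposited scale the PBS difference of -0.19 did not pass (adjusted p = 0.174). The agonist change was -0.06 ± 0.12, adjusted p = 0.816 in ERRKO and 0.22 ± 0.12, adjusted p = 0.194 in WT.

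Lanosterol synthase, encoded by Lss, folds epoxidised squalene into the sterol rings. Lss was at 1.94, 1.81 and 1.59 in ERRKO_CL, 2.34, 1.83 and 2.03 in ERRKO_PBS, 3.49, 5.62 and 3.48 in WT_CL and 2.77, 2.46 and 2.79 in WT_PBS. Both agonist-treated groups separated, with the 3 ERRKO_CL libraries at or under 1.94 and the 3 WT_CL libraries at or over 3.48. The difference was -1.01 ± 0.16, adjusted p = 0.000305. With agonist Lss was higher in WT (0.54 ± 0.16, adjusted p = 0.0248), a call lost without WT_CL replicate 2 or WT_PBS replicate 2 (adjusted p = 0.0822 and 0.0831), and in ERRKO the change was -0.17 ± 0.16, adjusted p = 0.574. Its interaction of -0.70 ± 0.23, adjusted p = 0.112 did not pass. Cyp51, the lanosterol demethylase, averaged 2.80 ± 0.995 in ERRKO_CL, 2.95 ± 0.287 in ERRKO_PBS, 4.52 ± 0.571 in WT_CL and 4.23 ± 1.12 in WT_PBS. It was lower in ERRKO_CL than in WT_CL (-0.64 ± 0.21, adjusted p = 0.0253), but the groups touched, at 3.92 in the highest ERRKO_CL and the lowest WT_CL library, and the call did not stand on the deposited scale (-0.01, adjusted p = 0.951) or without ERRKO_CL replicate 2 or 3 or WT_CL replicate 1 or 2 (adjusted p = 0.0626 to 0.109).

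Sqle, squalene epoxidase, is often treated as a control point of the pathway beyond mevalonate. Sqle was at 2.55, 1.14 and 1.40 in ERRKO_CL, 3.13, 1.98 and 2.32 in ERRKO_PBS, 2.82, 2.24 and 1.94 in WT_CL and 2.74, 1.55 and 4.10 in WT_PBS. The groups overlapped in all 4 comparisons, and no change passed: -0.41 ± 0.29, adjusted p = 0.288 and -0.09 ± 0.29, adjusted p = 0.84 between genotypes under agonist and PBS, and -0.47 ± 0.29, adjusted p = 0.351 and -0.15 ± 0.29, adjusted p = 0.734 for agonist in ERRKO and WT. With 58 to 192 reads per library, the 95% interval for agonist in WT ran from -0.79 to 0.48, so a change of the size seen in Hmgcs1 lay outside it. Squalene synthase, Fdft1, averaged 17 ± 1.03 in ERRKO_CL, 19.0 ± 1.09 in ERRKO_PBS, 22.4 ± 7.97 in WT_CL and 25.9 ± 5.06 in WT_PBS. Its genotype differences of -0.33 ± 0.21, adjusted p = 0.228 under agonist and -0.43 ± 0.21, adjusted p = 0.135 under PBS passed without WT_CL replicate 1 (adjusted p = 0.0168 and 0.0491). Tm7sf2, a sterol reductase, averaged 3.88 ± 0.393 in ERRKO_CL, 2.68 ± 0.442 in ERRKO_PBS, 4.18 ± 1.14 in WT_CL and 2.83 ± 0.720 in WT_PBS. Its agonist changes of 0.47 ± 0.19, adjusted p = 0.144 in ERRKO and 0.48 ± 0.19, adjusted p = 0.0725 in WT did not pass, the second passing without WT_CL replicate 1 or WT_PBS replicate 3. Hsd17b7 and Ebp, which act on the way from lanosterol, and Sc5d, the desaturase before Dhcr7, passed in no comparison. Mean levels lay between 0.897 and 1.22 for Hsd17b7, 9.59 and 11.0 for Ebp and 12.1 and 15.5 for Sc5d over the 4 groups.

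Among the 4 genes that control SREBP-2, Insig1 responded to agonist in both genotypes. INSIG1 retains the SREBP-Scap complex in the endoplasmic reticulum, and its gene is itself a target of SREBP-2. Insig1 was at 104, 62.5 and 69.7 in ERRKO_CL, 29.7, 22.3 and 31.8 in ERRKO_PBS, 93.8, 114 and 78.7 in WT_CL and 34.2, 29.4 and 38.3 in WT_PBS. Every agonist library lay above every PBS library. The rise was 1.46 ± 0.20, adjusted p = 0.00128 in ERRKO and 1.47 ± 0.20, adjusted p = 0.000298 in WT, both without any one library and on the deposited scale, and the interaction was -0.01 ± 0.28, adjusted p = 0.992 with a 95% interval of -0.63 to 0.61. ERRKO_CL replicate 1 was the highest library of its group, and without it the genotype difference under agonist passed (adjusted p = 0.0463, against 0.269 with all libraries).

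The other INSIG gene differed from this. Insig2 was at 13.7, 13.9 and 14.0 in ERRKO_CL, 13.3, 11.7 and 11.8 in ERRKO_PBS, 10.7, 11.1 and 11.7 in WT_CL and 9.60, 10.4 and 12.2 in WT_PBS. All ERRKO_CL libraries lay above all WT_CL libraries and within a narrow range. Under agonist Insig2 was higher in ERRKO (0.30 ± 0.09, adjusted p = 0.0213), a call lost without ERRKO_CL replicate 2 or 3 or WT_CL replicate 1 or 2 (adjusted p = 0.0524 to 0.0780), and under PBS the difference of 0.19 ± 0.09, adjusted p = 0.142 passed without WT_PBS replicate 3 (adjusted p = 0.0240) and before scaling (0.76, adjusted p = 1.5e-05). With agonist it changed by 0.17 ± 0.09, adjusted p = 0.278 in ERRKO and 0.06 ± 0.09, adjusted p = 0.677 in WT, and in WT it was 0.25 lower on the deposited scale (-0.25, adjusted p = 0.0362).

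Srebf2, which encodes SREBP-2, passed in no comparison on the scaled values. Srebf2 was at 6.31, 5.56 and 4.51 in ERRKO_CL, 8.42, 6.58 and 8.45 in ERRKO_PBS, 6.44, 6.16 and 5.60 in WT_CL and 8.04, 5.29 and 6.50 in WT_PBS. The ERRKO_CL libraries lay below the ERRKO_PBS libraries, and the WT groups overlapped. The agonist change was -0.48 ± 0.16, adjusted p = 0.0711 in ERRKO, where it passed without WT_PBS replicate 1 (adjusted p = 0.0498) and before scaling (-0.68, adjusted p = 0.0191), and -0.10 ± 0.16, adjusted p = 0.677 in WT. The genotype differences were -0.15 ± 0.16, adjusted p = 0.48 under agonist and 0.24 ± 0.16, adjusted p = 0.265 under PBS, and on the deposited scale both passed and were higher in ERRKO (0.51, adjusted p = 0.0157 and 0.79, adjusted p = 0.00116). Scap, the escort protein, had means of 9.20 ± 0.380 in ERRKO_CL, 8.79 ± 0.432 in ERRKO_PBS, 8.59 ± 0.251 in WT_CL and 8.84 ± 0.289 in WT_PBS, and its changes in the 4 comparisons between groups lay between -0.04 and 0.09 with none past the threshold.

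**Figure D3:**
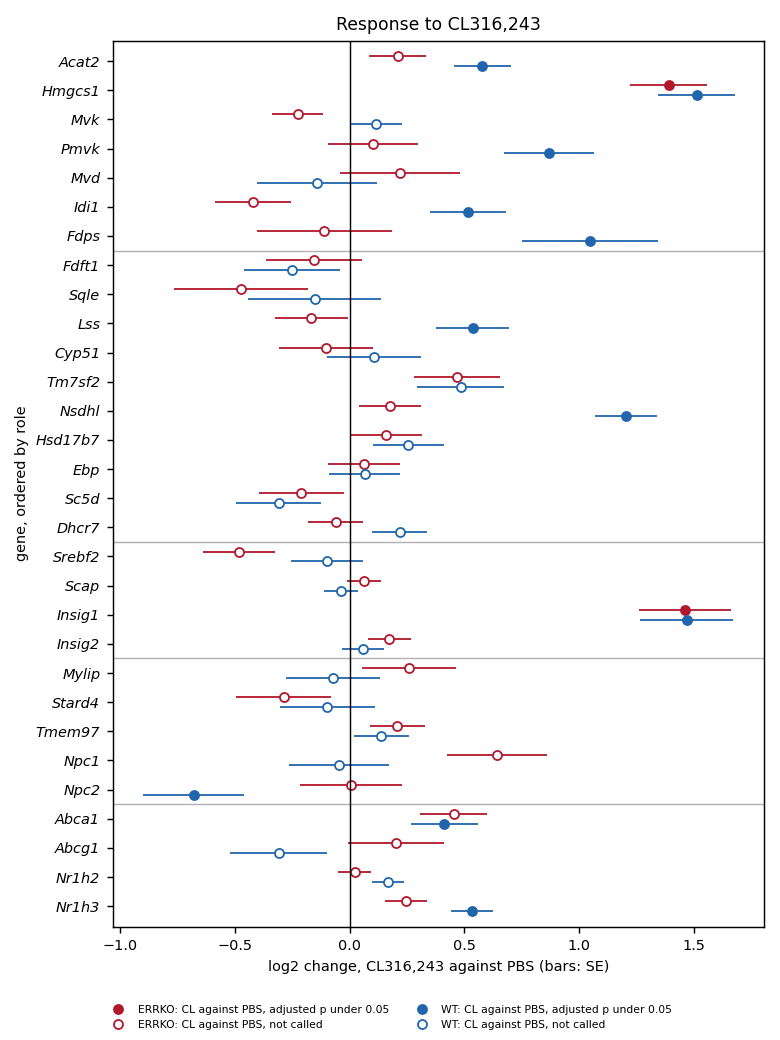
Log2 change with CL316,243 against PBS for each gene (x axis, bars SE), in ERRKO (red) and WT (blue), with filled points for an adjusted p under 0.05 and open points otherwise. In ERRKO 2 genes are filled, Hmgcs1 and Insig1, and in WT 11 are, of which Npc2 lies left of 0; on the deposited scale all points shift to the left by about the median of all genes, 0.16 in ERRKO and 0.26 in WT.

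Of the 5 genes of sterol uptake and movement within the cell, 2 were higher and 0 lower in ERRKO_CL than in WT_CL. In ERRKO_PBS 0 were higher and 1 lower than in WT_PBS. On the deposited scale the counts were 4 and 0 under agonist and 2 and 0 under PBS. Of all genes 19.8% and 21.6% were higher and lower in ERRKO under agonist, and 15.8% and 18.4% under PBS. On the deposited scale these shares were 70.5% and 6.62% under agonist, and 66.3% and 6.22% under PBS. Npc2 and Npc1 hand cholesterol out of the lysosome, Npc2 in its lumen and Npc1 in its membrane. Npc2 was at 128, 133 and 150 scaled RPKM in ERRKO_CL, 123, 166 and 124 in ERRKO_PBS, 58.7, 75.1 and 64.0 in WT_CL and 78.1, 93.3 and 161 in WT_PBS. The WT_CL libraries were the lowest, and WT_PBS replicate 3 stood with the ERRKO libraries. Under agonist Npc2 was higher in ERRKO (1.05 ± 0.22, adjusted p = 0.00238), without any one library. It was lower in WT_CL than in WT_PBS (-0.68 ± 0.22, adjusted p = 0.0363), a call lost without WT_CL replicate 1 or 3 or WT_PBS replicate 2 or 3 (adjusted p = 0.0508 to 0.114). Under PBS the genotype difference of 0.37 ± 0.22, adjusted p = 0.222 passed without WT_PBS replicate 3 (adjusted p = 0.00598), with quantile normalization (0.76, adjusted p = 0.00317) and before scaling (0.96, adjusted p = 0.00095).

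Npc1 averaged 12.7 ± 3.60 in ERRKO_CL, 7.74 ± 0.518 in ERRKO_PBS, 7.77 ± 1.48 in WT_CL and 8.16 ± 2.34 in WT_PBS, with ERRKO_CL libraries between 8.82 and 15.9 and WT_CL libraries between 6.33 and 9.29. It was higher in ERRKO under agonist (0.65 ± 0.22, adjusted p = 0.0317), a call lost without ERRKO_CL replicate 2 or 3 or WT_CL replicate 1 or 2 (adjusted p = 0.0738 to 0.130), while the agonist change in ERRKO (0.64 ± 0.22, adjusted p = 0.0872) passed without ERRKO_CL replicate 1 (adjusted p = 0.0313). Tmem97, an endoplasmic reticulum protein that binds Npc1, averaged 5.52 ± 0.104 in ERRKO_CL, 4.74 ± 0.668 in ERRKO_PBS, 6.96 ± 0.330 in WT_CL and 6.32 ± 1.01 in WT_PBS. Under PBS it was lower in ERRKO (-0.38 ± 0.12, adjusted p = 0.0288) but 0.17 higher on the deposited scale (adjusted p = 0.232), and the call was lost without ERRKO_PBS replicate 2, WT_PBS replicate 1 or WT_PBS replicate 3 (adjusted p = 0.0518 to 0.108). Under agonist its difference of -0.31 ± 0.12, adjusted p = 0.0578 passed without ERRKO_PBS replicate 2, WT_PBS replicate 2 or WT_PBS replicate 3 and with quantile normalization (adjusted p = 0.0437), but on the deposited scale it was 0.35 (adjusted p = 0.0191). Mylip, a ubiquitin ligase that marks lipoprotein receptors for degradation, averaged 13.6 ± 0.769 in ERRKO_CL, 11.3 ± 0.421 in ERRKO_PBS, 12.0 ± 1.93 in WT_CL and 13.1 ± 4.62 in WT_PBS, and its PBS difference of -0.15 ± 0.21, adjusted p = 0.61 passed without WT_PBS replicate 3 (adjusted p = 0.0247). Stard4, a soluble sterol carrier, averaged 1.61 ± 0.0489 in ERRKO_CL, 2.13 ± 0.587 in ERRKO_PBS, 1.95 ± 0.369 in WT_CL and 2.2 ± 0.750 in WT_PBS and passed in no comparison.

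Of the 4 genes of sterol export and its receptors, 1 was higher in ERRKO_CL than in WT_CL and 3 in ERRKO_PBS than in WT_PBS. On the deposited scale these counts were 4 and 3, and 0 were lower on either scale. Of all genes 19.8% and 15.8% were higher in ERRKO under agonist and PBS, and 70.5% and 66.3% on the deposited scale. The count under agonist on the scaled values and that under PBS on the deposited scale lay near these shares. Abca1 moves cholesterol and phospholipid out of the cell to apolipoproteins. Abca1 was at 33.0, 34.2 and 31.3 in ERRKO_CL, 20.7, 28.3 and 23.1 in ERRKO_PBS, 18.7, 14.8 and 16.5 in WT_CL and 9.90, 13 and 14.6 in WT_PBS. All 6 ERRKO libraries lay above all 6 WT libraries. It was higher in ERRKO under agonist (0.96 ± 0.15, adjusted p = 0.000222) and under PBS (0.92 ± 0.15, adjusted p = 0.000419), on both scales and without any one library. The agonist change was 0.45 ± 0.15, adjusted p = 0.0707 in ERRKO, where it passed without ERRKO_PBS replicate 2, WT_PBS replicate 1 or WT_PBS replicate 3 (lowest adjusted p = 0.0386), and 0.41 ± 0.15, adjusted p = 0.05 in WT. The WT call rested at the threshold and was lost in 8 of 12 fits that left out 1 library, those without any ERRKO_CL library, ERRKO_PBS replicate 3, WT_CL replicate 1 or 3 or WT_PBS replicate 1 or 2 (adjusted p = 0.0630 to 0.184), as well as with deposited RPKM (0.10, adjusted p = 0.546).

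Abcg1, which exports sterol to high-density lipoprotein, did not follow Abca1. Abcg1 was at 4.05, 3.88 and 2.22 in ERRKO_CL, 3.62, 2.21 and 2.69 in ERRKO_PBS, 2.35, 2.03 and 2.19 in WT_CL and 2.63, 3.57 and 2.40 in WT_PBS. The ERRKO_CL range spanned the WT_CL range, with ERRKO_CL replicate 3 at the level of WT_CL. The difference was 0.49 ± 0.21, adjusted p = 0.0814, and without ERRKO_CL replicate 3 it passed (adjusted p = 0.0104). On the deposited scale it also passed (1.08, adjusted p = 0.00089). Under PBS it was -0.02 ± 0.21, adjusted p = 0.955.

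RNA of Nr1h3, the LXRα gene, was higher after agonist in WT on the scaled values. Nr1h3 was at 30.7, 27.0 and 27.8 in ERRKO_CL, 25.9, 23.3 and 22.8 in ERRKO_PBS, 25.8, 28.6 and 27.4 in WT_CL and 17.9, 17.6 and 20.7 in WT_PBS. The WT_PBS libraries lay below all others. Nr1h3 was higher in WT_CL than in WT_PBS (0.53 ± 0.09, adjusted p = 0.00112; 0.22 and adjusted p = 0.0666 on the deposited scale) and under PBS higher in ERRKO than in WT (0.35 ± 0.09, adjusted p = 0.0102), both without any one library. The agonist change in ERRKO was 0.24 ± 0.09, adjusted p = 0.112 and the genotype difference under agonist 0.06 ± 0.09, adjusted p = 0.622. Nr1h2, for LXRβ, averaged 28.4 ± 0.182 in ERRKO_CL, 28.0 ± 0.503 in ERRKO_PBS, 27.3 ± 1.09 in WT_CL and 24.3 ± 1.43 in WT_PBS. Under PBS it was higher in ERRKO (0.20 ± 0.07, adjusted p = 0.0409), a call kept in 1 of 12 fits that left out 1 library, that without WT_PBS replicate 2, and lost in the others (adjusted p = 0.0512 to 0.104). Macrophages also express Abca1, Nr1h3 and Npc2. Their 14 marker genes summed to 184 to 230 in ERRKO_CL, 312 to 357 in ERRKO_PBS, 158 to 202 in WT_CL and 281 to 524 in WT_PBS, with 0 of 14 at 0 in any library. Of the 14, 2 were higher and 0 lower in ERRKO_CL than in WT_CL, 0 higher and 1 lower in ERRKO_PBS than in WT_PBS, 0 higher and 4 lower with agonist in ERRKO, and 0 higher and 10 lower with agonist in WT. In that order 19.8% and 21.6%, 15.8% and 18.4%, 6.68% and 3.62%, and 17.9% and 12.6% of all genes were higher and lower. The part of macrophages in these members' values was not tested.

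**Figure D4:**
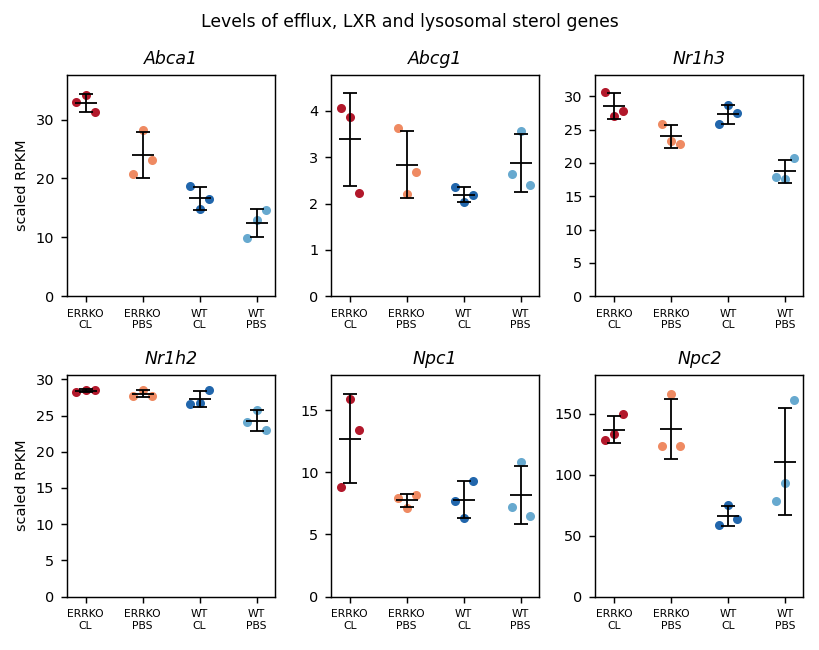
Scaled RPKM of 6 genes of sterol export, LXR and lysosomal release in each library (points, y axis from 0), by group along the x axis, with the mean (long bar) and SD (short bars, n = 3). Abca1 lies at 20.7 to 34.2 in the ERRKO libraries and at 9.90 to 18.7 in the WT libraries, and Npc2 is lowest in WT_CL.

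**Figure D5:**
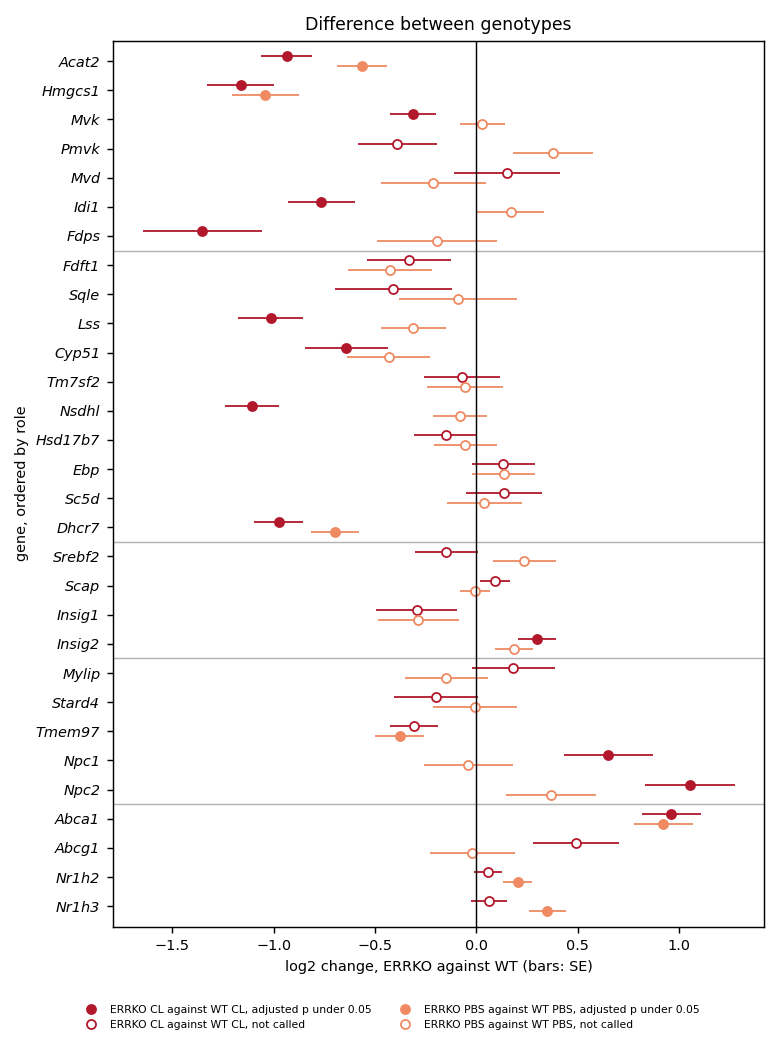
Log2 difference of ERRKO against WT for each gene (x axis, bars SE), under CL316,243 (red) and PBS (orange), with filled points for an adjusted p under 0.05. Filled points left of 0 belong to synthesis enzymes, apart from Tmem97 under PBS, and filled points right of 0 to Insig2, Npc1, Npc2, Abca1, Nr1h2 and Nr1h3; on the deposited scale all points shift to the right by about 0.63 under agonist and 0.53 under PBS, where 17 genes under PBS and 10 under agonist change sign, among the filled points Acat2 and Tmem97 under PBS and Mvk under agonist.

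The calls that stood on both scales form a shorter list. They were Hmgcs1, Fdps, Lss, Nsdhl and Dhcr7 lower and Insig2, Npc1, Npc2 and Abca1 higher in ERRKO_CL than in WT_CL, and Hmgcs1 lower and Abca1, Nr1h2 and Nr1h3 higher in ERRKO_PBS than in WT_PBS. For agonist they were Hmgcs1 and Insig1 higher in ERRKO, and Hmgcs1, Pmvk, Nsdhl and Insig1 higher and Npc2 lower in WT. The interaction of Nsdhl was the remaining one. On the deposited scale 70.5% and 66.3% of all genes were higher in ERRKO under agonist and PBS, and 38.1% were lower with agonist in WT. For calls in those directions, passing on both scales is thus no second check, while calls in the other direction passed against the shift. With edgeR on the recovered reads 12 of 13, 6 of 7, 2 of 2, 10 of 11 and 2 of 2 calls passed in the same direction for ERRKO_CL against WT_CL, ERRKO_PBS against WT_PBS, agonist in ERRKO, agonist in WT and the interaction, the exceptions being Mvk, Tmem97 and Abca1 in WT. In the same order edgeR called 41.1%, 34.8%, 9.84%, 29.3% and 3.33% of all genes it tested, in either direction.

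Other genes of sterol handling, 31 tested of 35 listed, changed in both directions. In ERRKO_CL against WT_CL 6 were higher and 8 lower (17 and 3 on the deposited scale), in ERRKO_PBS against WT_PBS 7 and 6 (19 and 1), with agonist 3 and 0 in ERRKO (2 and 1) and 9 and 2 in WT (4 and 6), and for the interaction 1 and 1 (2 and 0). Their medians were -0.17, -0.04, 0.06, 0.11 and -0.04. In that order the shares of all genes were 19.8% and 21.6%, 15.8% and 18.4%, 6.68% and 3.62%, 17.9% and 12.6%, and 1.88% and 2.02%. The genotype counts of the 31 genes on the scaled values lay near these shares. On the deposited scale the shares were 70.5% and 6.62%, 66.3% and 6.22%, 3.23% and 13.7%, 7.2% and 38.1%, and 3.88% and 1.26%. Gramd1b, which carries cholesterol from the plasma membrane to the endoplasmic reticulum, averaged 9.98 ± 0.862 in ERRKO_CL, 3.81 ± 0.471 in ERRKO_PBS, 3.65 ± 0.225 in WT_CL and 1.53 ± 0.321 in WT_PBS. It was higher in ERRKO under agonist (1.33 ± 0.13, adjusted p = 6.7e-06) and PBS (1.09 ± 0.13, adjusted p = 5.09e-05), and with agonist in ERRKO (1.28 ± 0.13, adjusted p = 0.000299) and WT (1.04 ± 0.13, adjusted p = 0.000167). Of the erlins, endoplasmic reticulum proteins that restrain SREBP activation, Erlin1 was at 7.86 ± 0.318 in ERRKO_CL, 10.2 ± 1.33 in ERRKO_PBS, 3.43 ± 0.335 in WT_CL and 6.91 ± 0.643 in WT_PBS and Erlin2 at 15.9 ± 0.221 in ERRKO_CL, 14.8 ± 0.168 in ERRKO_PBS, 25.4 ± 1.74 in WT_CL and 24.2 ± 0.269 in WT_PBS. Under agonist Erlin1 was higher (1.09 ± 0.11, adjusted p = 8.73e-06) and Erlin2 lower (-0.66 ± 0.07, adjusted p = 1.39e-05, but 0.04 on the deposited scale) in ERRKO. Cyp27a1, which makes an oxysterol ligand of LXR, averaged 44.6 ± 2.91 in ERRKO_CL, 34.6 ± 5.59 in ERRKO_PBS, 22.6 ± 1.45 in WT_CL and 38.1 ± 5.31 in WT_PBS, fell with agonist in WT (-0.74 ± 0.13, adjusted p = 0.00127) and had the interaction 1.11 ± 0.18, adjusted p = 0.00693.

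LXR target genes, 9 tested and 4 of them also among the 30 described, were higher for 3 and lower for 0 in ERRKO_CL than in WT_CL (7 and 0 on the deposited scale), and 5 and 0 in ERRKO_PBS than in WT_PBS (6 and 0). With agonist the counts were 1 and 0 in ERRKO (1 and 1) and 4 and 1 in WT (2 and 1). In that order the shares of all genes were 19.8% and 21.6%, 15.8% and 18.4%, 6.68% and 3.62%, and 17.9% and 12.6%. On the deposited scale they were 70.5% and 6.62%, 66.3% and 6.22%, 3.23% and 13.7%, and 7.2% and 38.1%. The genotype counts of LXR targets higher on the deposited scale lay near these shares. Pltp, the phospholipid transfer protein, averaged 64.9 ± 5.72 in ERRKO_CL, 59.0 ± 6.53 in ERRKO_PBS, 23.9 ± 2.22 in WT_CL and 31.8 ± 4.69 in WT_PBS and was higher in ERRKO under agonist (1.42 ± 0.12, adjusted p = 2.08e-06) and PBS (0.89 ± 0.12, adjusted p = 0.000144). Srebf1, whose product drives fatty acid synthesis, averaged 87.2 ± 34.6 in ERRKO_CL, 89.6 ± 15.2 in ERRKO_PBS, 68.7 ± 10.5 in WT_CL and 35.7 ± 1.05 in WT_PBS and under PBS was higher in ERRKO (1.30 ± 0.22, adjusted p = 0.000697). Of 14 genes of fatty acid synthesis, 0 were higher and 7 lower in ERRKO_CL than in WT_CL (1 and 3 on the deposited scale), 1 and 0 in ERRKO_PBS than in WT_PBS (6 and 0), 0 and 0 with agonist in ERRKO (0 and 1) and 8 and 0 with agonist in WT (5 and 1). The shares of all genes given beside the LXR targets hold for these counts too. The elongase Elovl6 averaged 10.7 ± 3.78 in ERRKO_CL, 11.0 ± 4.82 in ERRKO_PBS, 108 ± 45.8 in WT_CL and 18.4 ± 3.44 in WT_PBS and passed the interaction (-2.46 ± 0.48, adjusted p = 0.0179), alone among the 14.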

How the data were processed

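The 30 genes and the further lists were chosen with earlier results of these data known. The authors deposited RPKM values for 24452 genes in 12 libraries. Per the submitters' processing notes, STAR 2.3.0, edgeR, cutadapt and bcl2fastq 2.16.0.10 belong to the authors' processing, and 2 mouse builds, mm9 and mm10, are listed without a role. How reads were counted, on which annotation and by strand or not, is not given in the sources used here, which bears on overlapping genes and paralogs. A second deposited table of 12380 genes is named as log CPM but holds a signal on a linear scale; 9 of its cells that belong to no sample column were not used. Within each library 100% of its values were whole multiples of a step within a tolerance of 0.01, so deposited signal was turned into read counts by dividing by that step.

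RPKM was divided by a median-of-ratios factor per library, 0.5 was added and log2 taken. A single model of 4 group means over all 12 libraries (8 residual degrees of freedom) was fitted in limma 3.58.1 under R 4.3.3, with trended empirical Bayes, to the 12249 genes whose mean RPKM reached 0.5. Benjamini-Hochberg adjustment ran over all genes within each of the 5 comparisons, and 0.05 was the threshold. Changes of low genes are understated by the added 0.5, and depth limits the precision of genes with few reads. Coordinates are 1-based; gene positions and exon overlap come from GENCODE M21. edgeR 4.0.16 and DESeq2 1.42.0 were run on the recovered counts as alternatives. Others were deposited scale, quantile normalization, pseudocounts of 0.1 and 1, no filter, a filter at a mean RPKM of 2, only the groups compared, the second table, a replicate block, both ERRKO libraries numbered 3 left out, and each library left out in turn. The fitting procedure was also run on simulated data, whose outcome is not given here and is not used as support. Named with values in every library were the 4 members with the smallest p in each comparison and Hmgcs1, Sqle, Srebf2, Insig1, Insig2, Abca1, Abcg1 and Nr1h3; Npc2 and the paralog Acat3 were added after their values were seen; of other lists, up to 3 genes with the smallest p per comparison described. Pltp, Srebf1, Gramd1b, Erlin1, Erlin2, Cyp27a1 and Elovl6 fall under that rule.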

Additional observations from a re-analysis of the deposited data

Results flagged for a closer look

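For 2 genes the test of the difference between genotypes in the response to CL316,243 passed, for Nsdhl without any one library and for Idi1 in few of those fits. The ERRKO response minus the WT response was -1.03 (log2) for Nsdhl, with 0.18 ± 0.13 in ERRKO and 1.2 ± 0.13 in WT (SE, 3 libraries per group; adjusted p = 0.0132). For Idi1 it was -0.94, with -0.42 ± 0.17 in ERRKO and 0.51 ± 0.17 in WT (adjusted p = 0.0471), a call lost in 10 of 12 fits that each left out 1 library (adjusted p = 0.0576 to 0.114), on the deposited scale (-0.82, adjusted p = 0.0571), with the replicate block (adjusted p = 0.0804), with no filter (adjusted p = 0.0877) and with both ERRKO libraries numbered 3 left out. The limma p-values were adjusted over 12249 genes. Groups of 3 are too small for a test of single outlying libraries, and none was made.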

How the results depend on the processing

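The scale of the deposited RPKM changed more results than any other setting. On it the members called higher and lower were 16 and 5 for ERRKO_CL against WT_CL, 15 and 1 for ERRKO_PBS against WT_PBS, 2 and 3 for agonist in ERRKO, 4 and 5 for agonist in WT, and 0 and 1 for the interaction. Signs differed on it for 10 members for ERRKO_CL against WT_CL, 17 for ERRKO_PBS against WT_PBS, 7 for agonist in each genotype and 4 for the interaction; among changes past the threshold on either scale those that turned round were Mvk (0.35), Tm7sf2 (0.56), Srebf2 (0.51) and Tmem97 (0.35) for ERRKO_CL against WT_CL, Acat2 (0.022), Tm7sf2 (0.45), Nsdhl (0.47), Scap (0.56), Tmem97 (0.17) and Npc1 (0.52) for ERRKO_PBS against WT_PBS, and Insig2 (-0.25) for agonist in WT. This alternative leaves in the shift of the median gene. For the settings that follow the cause was not tested. The single member lower with agonist in WT became 0 with no filter, with only the groups compared and with both ERRKO libraries numbered 3 left out. The 2 members lower in the interaction became 1 with no filter and with both of those libraries left out. DESeq2 called 4 higher and 1 lower for agonist in ERRKO. The share of all genes that DESeq2 called was not taken, so whether these counts exceed it is not known.

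With 1 library left out in turn, members called higher ranged over 2 to 4 for ERRKO_CL against WT_CL, 2 to 5 for ERRKO_PBS against WT_PBS, 2 to 3 for agonist in ERRKO, 6 to 11 for agonist in WT and 0 to 0 for the interaction, and members called lower over 7 to 10, 3 to 5, 0 to 1, 0 to 1 and 1 to 4 in the same order. The count was 2 higher for ERRKO_CL against WT_CL without ERRKO_CL replicate 2, WT_CL replicate 1 or WT_CL replicate 2, 5 higher for ERRKO_PBS against WT_PBS without WT_PBS replicate 3, and 6 higher for agonist in WT without WT_PBS replicate 2. It was 1 lower for agonist in ERRKO without WT_PBS replicate 1, 0 lower for agonist in WT without WT_CL replicate 1 or 3 or WT_PBS replicate 2 or 3, and 4 lower for the interaction without WT_PBS replicate 3.

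Whether replicate numbers pair the libraries was not settled. Deviations of 18 same-numbered pairs correlated between -0.39 and 0.45 (median 0.04), with 7 over 0.1. Those of 36 pairs with different numbers lay between -0.47 and 0.45 (median -0.05), with 10 over 0.1. With the replicate block 1 member was lower for agonist in ERRKO (Srebf2) and 1 in the interaction (Nsdhl), and Nr1h2 under PBS and Abca1 and Idi1 with agonist in WT no longer passed. Depth limits the least read members, Mvd at 24 to 103 reads per library, Tm7sf2 at 48 to 130 and Stard4 at 54 to 179.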

Other observations

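Within each group 1 library held the highest value for most of the 17 synthesis enzymes. ERRKO_CL replicate 1 held the highest value of its group for 12 of the 17, ERRKO_PBS replicate 1 for 11, WT_CL replicate 2 for 12 and WT_PBS replicate 3 for 14. The same count over all genes was not made, so whether this is particular to the synthesis enzymes is not known. The summed level of 8 adipocyte markers was 15197 in WT_PBS replicate 3 and between 10205 and 10457 in the other WT_PBS libraries, and that of 8 brown adipocyte markers was 4155 there and between 2411 and 2680 in the others. Fabp4 made up most of the first sum, at 12650 there against 8317 and 8573. Adipoq, Cidec, Plin1 and Retn were also highest there. Lipe (318, against 321 and 317), Lep (63.5, against 61.6 and 62.1) and Pparg (122, against 109 and 124) did not stand apart. Cox8b, Cidea and Ucp1, which made up most of the second sum, were highest there too, and Prdm16 was lowest (3.47, against 4.05 and 4.12). The part of these differences in the members' values was not tested.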
